A study of Rattus norvegicus with 3 samples.

Results

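Skeletal muscle contracts when calcium leaves its internal store, the sarcoplasmic reticulum, at the triad. There the surface membrane dips into the fibre as a transverse tubule (T-tubule) that is pressed between store membranes. The voltage sensor of the tubule, a calcium channel whose pore subunit is encoded by Cacna1s, touches the release channel of the store, Ryr1, and opens it when the membrane is depolarised. Junctophilins hold both membranes together, triadin ties the release channel to calsequestrin, the calcium binder inside the store, and caveolin-3 and the amphiphysin encoded by Bin1 shape the tubule membrane. Fast fibres are known for a denser triad network than slow fibres.

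The genes described here are 10 named parts of that junction: Ryr1, Cacna1s, Cacnb1, Cacng1, Cacna2d1, Trdn, Jph1, Jph2, Cav3 and Bin1. A gene was taken as measured where the RefSeq accession of a non-control probe maps to its symbol. This gave 9 genes on 13 probes, out of 15168 genes named on the array. Ryr1, the release channel itself, had no such probe and is not analysed here. All 9 genes were well above background on every array.

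The RNA came from hindlimb muscle of 12-week-old male rats, strain background Wistar Honnover, on 3 one-colour Cy3 Agilent arrays with 1 array per group. The groups are the normal soleus, a slow postural muscle, and the normal plantaris, a faster muscle beside it, both from untreated rats, and the soleus 28 days after the left sciatic nerve was cut. The normal soleus array is titled only "Post" and was placed by its source name, and the sources used here do not say how many animals each array holds. Without replicates no p-value can be given, and every difference describes 3 arrays.

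Levels are multiples of the 75th percentile of each array's processed signal and are compared only within a probe. A fold is a difference of log2 levels, where 1 stands for 2-fold, and the error after ± comes from the scanner software, which puts it near 0.20 for every fold of these genes apart from those of Jph1. Levels are called apart where the fold exceeds 2 such errors. For a single level this error was 0.144 log2 units at the lowest and at the median, and 0.192 at the highest. The rule of 2 errors therefore acts nearly as a fixed cutoff of size. It measures neither the scatter of repeat spots nor the spread between animals. Repeat spots of a probe on 1 array differed with an SD of 0.00097 to 0.175 log2 units (median 0.040, 33 probe and array pairs).

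Between 64.2% and 67.0% of all probes were well above background and 0 spots were saturated. The muscles matched their labels in the fibre markers: all 6 slow fibre genes were at least 2-fold lower in plantaris than in soleus (median -2.69) and all 8 fast fibre genes at least 2-fold higher (median 5.17). In the denervated soleus 5 of the 6 slow genes were at least 2-fold lower than in the normal soleus (median -1.35) and 4 of the 8 fast genes at least 2-fold higher (median 0.85).

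The stretch of 250 bases before the transcript start is shown for the gene that set the 3 arrays furthest apart (Jph2), for the other gene lower after denervation by at least 2-fold (Cav3), and for the pore subunit, the member with the largest plantaris fold (Cacna1s). The sequences are from RefSeq, build GRCr8, on the gene's strand. Capitals mark E-boxes, the CANNTG sites that myogenic regulatory factors can bind. Jph2 is at chr3:172477922-172478171 on the minus strand, Cav3 at chr4:147137743-147137992 on the plus strand and Cacna1s at chr13:50045418-50045667 on the plus strand.
Jph2: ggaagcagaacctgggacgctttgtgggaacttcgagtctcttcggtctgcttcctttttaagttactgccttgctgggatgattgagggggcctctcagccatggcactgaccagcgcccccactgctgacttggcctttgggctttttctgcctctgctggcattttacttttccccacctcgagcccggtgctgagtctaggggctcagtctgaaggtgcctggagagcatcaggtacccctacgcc
Cav3: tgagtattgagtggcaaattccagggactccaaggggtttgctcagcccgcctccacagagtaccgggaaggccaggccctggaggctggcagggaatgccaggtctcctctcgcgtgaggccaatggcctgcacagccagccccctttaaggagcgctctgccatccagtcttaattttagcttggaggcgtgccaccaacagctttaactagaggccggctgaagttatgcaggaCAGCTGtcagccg
Cacna1s: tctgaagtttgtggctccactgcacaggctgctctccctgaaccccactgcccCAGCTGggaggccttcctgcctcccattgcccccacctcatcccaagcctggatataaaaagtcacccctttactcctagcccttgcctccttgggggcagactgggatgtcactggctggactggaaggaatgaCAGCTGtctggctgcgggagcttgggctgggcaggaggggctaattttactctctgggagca

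The Cacna1s window holds 2 E-boxes with the letters CAGCTG, 62 and 197 bases before the start, and the Cav3 window holds 1 with the same letters 13 bases before it. An MCAT box (CATTCC, either strand), the site of TEAD factors, lies 69 bases before the start in Cacna1s and 157 in Cav3. The Cav3 window also has a MEF2 element at 78, and the Cacna1s window a TATA box (TATAAA) at 144. None of these matches overlaps another. The Jph2 window has no match to any of these motifs or to the CArG box. Of 33469 rat promoter windows of the same length 65.5% hold an E-box, 12.1% an MCAT box, 2.96% a MEF2 element, 12.9% a TATA box and 1.5% a CArG box. Windows were at hand for 7 of the 10 genes, and 3 of those 7 (Cacna1s, Cav3 and Ryr1) hold an E-box. A match of letters is a description and not evidence of binding.

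On the brighter probe of each gene plantaris was the highest array for all 9, and for 7 of them the denervated soleus was the lowest. For 5 of those 7 (Cacna1s, Cacng1, Jph1, Trdn and Bin1) the step from denervated to normal soleus was within 2 errors. Cacna2d1 and Cacnb1 had the normal soleus lowest on that probe. The second probes of Cacnb1 and Bin1 gave the other order of the soleus arrays. The order also depends on scaling: 2 of the 9 genes were above plantaris in denervated soleus under quantile normalization and 2 when centred on genes of like brightness, and 1 with the authors' deposited values and 1 with a percentile over detected probes. Of 9855 genes well above background on all 3 arrays, 2661 (27.0%) were, like those 7, lower in denervated than in normal soleus and higher in plantaris than in normal soleus. Jph2 was the only triad gene whose neighbouring levels were apart by more than 2 errors at both steps.

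**Figure D1:**
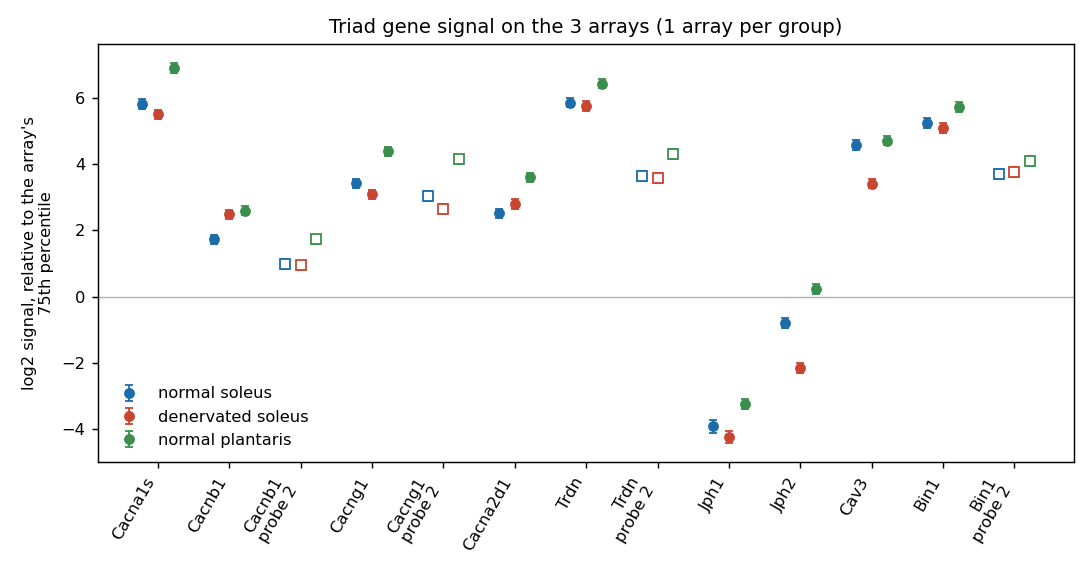
Signal of each triad gene probe on a log2 scale relative to the array's 75th percentile, for normal soleus (blue), denervated soleus (red) and normal plantaris (green), 1 array each; bars are the scanner software's error, filled circles the brighter probe of a gene and open squares its second probe. Green is the highest of its 3 points for every probe, and the widest gap between red and green is that of Jph2.

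Soleus and plantaris differ in fibre type, and the first comparison asks how the triad genes differ between them. All 9 were higher in plantaris, with a median log2 fold of 0.87 against 0.02 over all genes, where 52.2% of 11015 genes lay above 0 and 47.8% below. Cacna1s, Cacna2d1 and Jph2 were at least 2-fold higher and none was at least 2-fold lower. Over all genes these shares were 5.71% and 6.11%. Every gene but Cav3 was higher by more than 2 errors.

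All 4 voltage sensor genes were higher in plantaris by more than 2 errors. Cacna1s, the pore subunit that senses voltage, had a level of 56.5 in normal soleus and 121 in plantaris, with repeat spots at 54.4 and 58.6 and at 118 and 125. Its level in plantaris was thus 2.15-fold that in soleus (1.1 ± 0.20), and 4.73% of all genes had a higher fold. The fold was under 2-fold with quantile normalization (0.79) and with the authors' deposited values (0.99). Cacna2d1, the extracellular subunit, stood at 5.73 in soleus and 12.2 in plantaris (1.09 ± 0.20), or 0.92 and 0.98 under the same settings. Its repeat spots were tight, at 5.6 and 5.87 in soleus and 12.1 and 12.3 in plantaris.

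Cacng1, the transmembrane gamma subunit of the muscle channel, came just short of 2-fold on its brighter probe, with 10.7 in soleus and 21.0 in plantaris (0.97 ± 0.20). Its second probe passed 2-fold, with 8.28 and 17.7 (1.1 ± 0.20). Cacnb1, the cytoplasmic beta subunit that brings the pore subunit to the triad, was 1.83-fold higher on the brighter probe, with 3.31 in soleus and 6.07 in plantaris (0.87 ± 0.20). Its second probe gave 1.98 and 3.32 (0.75 ± 0.20). Both probes of both genes put plantaris above soleus beyond 2 errors.

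Among the junction genes the plantaris fold ranged from 1.49-fold for Trdn to 2.05-fold for Jph2. Jph2, the junctophilin known best from heart, had levels of 0.574 and 1.17 (1.03 ± 0.20). It was under 2-fold with normexp background (0.94), the authors' deposited values (0.92) and a percentile taken over detected probes (0.98). Jph1, the skeletal muscle junctophilin, was faint, at 0.0659 in soleus and 0.105 in plantaris (0.67 ± 0.25), or 0.34 with normexp background. Trdn stood at 58.3 in soleus and 86.8 in plantaris on its brighter probe, which has 1 usable spot per array (0.57 ± 0.20), and at 12.5 and 19.9 on the other (0.67 ± 0.20).

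The tubule genes differed least. Bin1 had levels of 37.9 and 53.4 (0.49 ± 0.20), and its second probe, with 1 spot per array, gave 13.1 and 17.2 (0.40 ± 0.20), which is within 2 errors. Cav3 stood at 23.9 in soleus and 26.4 in plantaris (0.14 ± 0.20), so the rule of 2 errors does not call these levels apart. Of all genes 61.0% had a lower fold than Cav3, against 83.7% to 95.3% for the other 8 triad genes.

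The second comparison asks what loss of the nerve does to the same genes in a slow muscle. The denervated array lies on another slide than the normal arrays, which share one, so slide and denervation cannot be told apart. Also, in whole muscle fewer cells of a type and less RNA per cell cannot be told apart. Jph2 and Cav3 were at least 2-fold lower, none was at least 2-fold higher, and 7 changed by less than that. The median was -0.31 against 0.02 over all 11318 genes, of which 13.4% were at least 2-fold lower and 8.73% at least 2-fold higher (22.1% either way). Of the 9 genes 7 had a fold below 0 and 2 above, where 48.8% and 51.2% of all genes did. This split became 4 below and 5 above under quantile normalization and against genes of like brightness, and 5 and 4 with the authors' deposited values.

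Jph2 was the most reduced. Its level was 0.574 in normal and 0.223 in denervated soleus, with repeat spots at 0.569 and 0.579 and at 0.219 and 0.227. This is a 2.57-fold lower level (-1.36 ± 0.21), and 8.48% of all genes had a lower fold. It remained at least 2-fold lower in all 11 other ways of processing, between -1.46 and -1.12. Jph1 moved less, from 0.0659 to 0.0526 (-0.33 ± 0.27). That is within 2 errors, although its spots, at 0.0605 and 0.0718 against 0.0511 and 0.0540, did not overlap. Lack of overlap marks out neither gene. Spots of the normal and denervated soleus did not overlap on the brighter probe of any member with repeat spots, down to the fold of Bin1 (-0.15). The brighter probe of Trdn has 1 spot per array, so overlap cannot be judged there.

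Cav3, the muscle caveolin, stood at 23.9 in normal and 10.7 in denervated soleus, with spots at 23.2 and 24.5 and at 10.4 and 11.1. The level was 2.23-fold lower (-1.16 ± 0.20), with 11.1% of all genes lower still. The call depends on scaling: the fold was -0.81 under quantile normalization, -0.91 with the authors' deposited values and -0.89 when centred on genes of like brightness. Bin1, the other tubule gene, had 37.9 and 34.3 (-0.15 ± 0.20), and 13.1 and 13.7 on its second probe (0.07 ± 0.20). Bin1 levels in normal and denervated soleus were therefore not called apart on either probe.

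The voltage sensor genes stayed closer together. Cacna1s had 56.5 and 45.7 (-0.31 ± 0.20), Cacng1 10.7 and 8.53 (-0.33 ± 0.20, second probe -0.40 ± 0.20), and Cacna2d1 5.73 and 6.96 (0.28 ± 0.20), all within 2 errors. Genes as bright as Cacna1s (108 genes within 0.5 log2 units) had a median of -0.35 themselves, and centred on them its fold was 0.04. Trdn, at 58.3 and 54.1 (-0.11 ± 0.20, second probe -0.05 ± 0.20), also lay within 2 errors.

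Cacnb1 went the other way on one probe. The brighter probe read 3.31 in normal and 5.6 in denervated soleus, 1.69-fold higher (0.76 ± 0.20), with 13.8% of all genes higher still. The second probe read 1.98 and 1.92 (-0.04 ± 0.20). These disagree by more than either error, so no direction is given for the gene as a whole. With the authors' deposited values the brighter probe passed 2-fold (1.0).

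**Figure D2:**
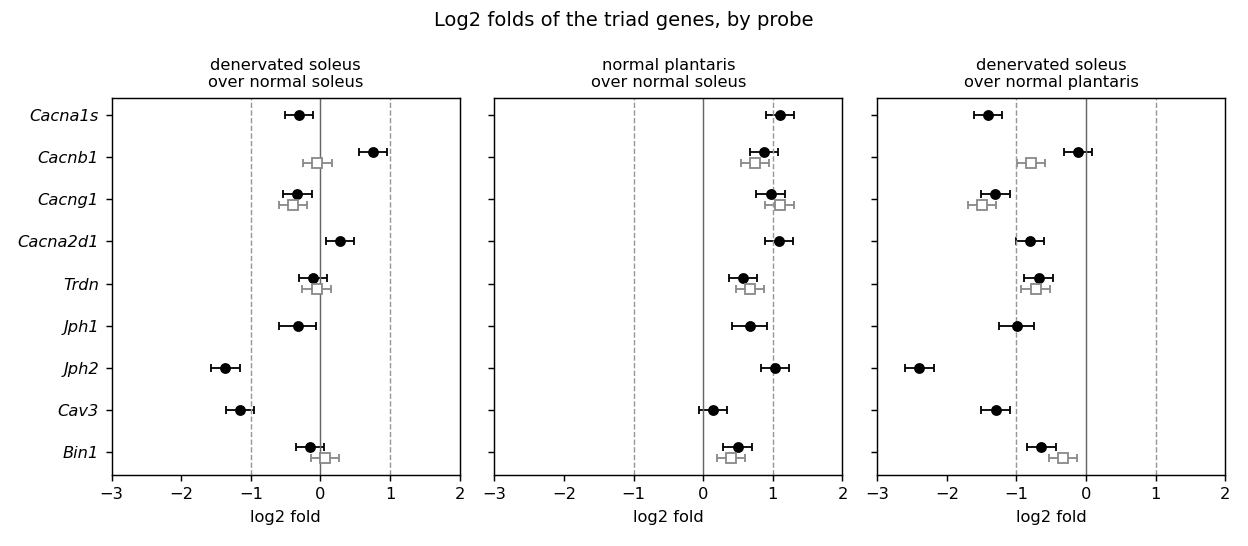
Log2 folds of the triad genes in the 3 comparisons, with scanner error; black circles are the brighter probe of a gene, grey squares its second probe, and dashed lines mark 2-fold. In the left panel Jph2 and Cav3 lie past the lower line and the probes of Cacnb1 part, while in the middle panel all points lie right of 0.

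Markers of other cells and of the fibres themselves moved with denervation. Of 5 measured fibre genes 4 were at least 2-fold lower in the denervated soleus (median -1.46), all but myoglobin, Mb (-0.18), and their summed level was 1420 in normal soleus, 726 in denervated soleus and 1896 in plantaris. The summed level of the adipocyte genes was 10.6, 60.8 and 9.08 in the same order, and the 4 of them that could be compared were all at least 2-fold higher after denervation (median 2.75), with Lep not well above background on any array. Of 5 fibroblast genes none passed 2-fold on its brighter probe (median 0.76), although the second probe of Col1a1 did (1.43). Their summed level was 86.2, 160 and 157, of which Col1a1 made up 36.7, 72.8 and 111. The fold of Cav3 (-1.16) and that of Jph2 (-1.36) lie near the median of the fibre genes, and the part of cell makeup in them was not tested.

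The remaining marker lists had these medians after denervation, bounds included: -0.60 for 5 endothelial, -0.55 for 6 smooth muscle and pericyte, -1.36 for 6 Schwann cell and 0.47 for 5 macrophage genes. At least 2-fold lower were 2 endothelial, 1 smooth muscle and 4 Schwann cell genes, and 1 Schwann cell gene was at least 2-fold higher. Summed over the list, the levels in normal soleus, denervated soleus and plantaris were 12.5, 6.55 and 10.05 for endothelial, 7.88, 5.85 and 6.47 for smooth muscle, 2.93, 2.21 and 3.55 for Schwann cell and 3.18, 3.4 and 2.10 for macrophage genes. Of the cardiac list 3 of 5 genes could be compared (median -1.15, 2 lower), and the heart peptides Nppa and Nppb were not well above background on any array. Their part in the folds was not tested either.

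The third comparison sets the denervated soleus against the plantaris and reuses both of those arrays, so it adds no new measurement. It shows how far the denervated soleus array stood from the plantaris array in these genes. Muscle, denervation and slide all differ between them and cannot be told apart. All 9 were lower in denervated soleus (median -1.0, against 0.01 over all genes, of which 49.6% lay below 0 and 50.4% above). Cacna1s, Cacng1, Cav3 and Jph2 were at least 2-fold lower, where 16.7% of 11371 genes were, and none was higher by that size, where 12.0% were.

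Jph2 had the widest gap, 0.223 against 1.17, which is 5.27-fold (-2.40 ± 0.21). Only 2.54% of all genes had a lower fold, and the fold remained past 2-fold in every other way of processing, from -2.50 to -2.04. Cacna1s followed with 45.7 against 121, a 2.65-fold gap (-1.41 ± 0.20), which shrank to -0.65 under quantile normalization and -0.87 against genes of like brightness. Cacng1 and Cav3 both stood at -1.30 ± 0.20, and each came within 2-fold under the same settings and with the authors' deposited values (-0.95 each).

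The other members were lower by less than 2-fold. Jph1 lay just inside that line (-1.0 ± 0.25, 1.99-fold), Cacna2d1 at -0.81, Trdn at -0.68 and Bin1 at -0.64, each beyond 2 errors on the brighter probe. The directions of Trdn and Bin1 rest on the scaling: Trdn was at 0.04 under quantile normalization and -0.04 against genes of like brightness, where Bin1 was at 0.06. The brighter probe of Cacnb1 was within 2 errors, 5.6 against 6.07 (-0.12 ± 0.20), and so was the second probe of Bin1, 13.7 against 17.2 (-0.33 ± 0.20). The second probe of Cacnb1 gave 1.92 against 3.32 (-0.79 ± 0.20). The direction of Cacnb1 also rests on the scaling. Its fold changed sign in 4 of 11 other ways of processing, reaching 0.24 with the authors' deposited values.

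The triad genes are described here by both folds against the normal soleus, and no grouping of them was tested. Jph2 was lower after denervation and higher in plantaris, each by at least 2-fold. Cav3 was lower after denervation with hardly any difference between muscles. Cacna1s, Cacng1 and Jph1 were higher in plantaris with a small lower fold after denervation, Trdn and Bin1 were nearer to 0 on both, and Cacna2d1 lay above 0 on both. Cacnb1 did so on its brighter probe only, since the second probe was at -0.04 after denervation. The denervation folds of Cacna1s, Cacng1, Jph1, Trdn, Bin1 and Cacna2d1 were within 2 errors. Those of Cacna1s, Trdn and Bin1 changed sign under some other ways of processing.

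**Figure D3:**
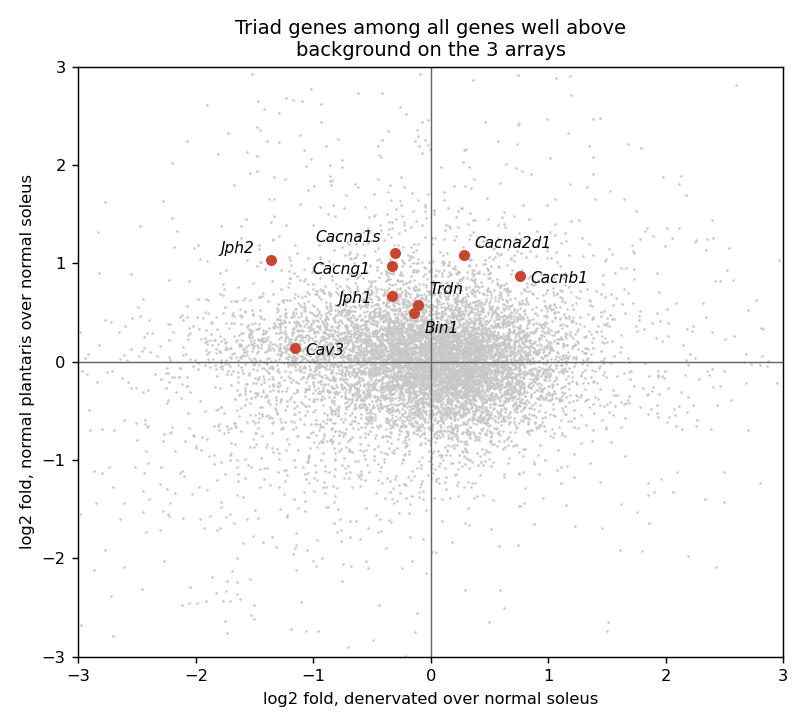
Each gene well above background on all 3 arrays as a grey point, with its log2 fold for denervated over normal soleus across and for normal plantaris over normal soleus upward; the 9 triad genes are red, and 147 of 9855 genes lie outside the axes. All red points are above 0, and Jph2 stands furthest to the upper left of them.

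The genes nearest to each member in this pair of folds were found among the other 9854. Jph2 had few neighbours: 19 genes lay within 0.25 log2 units, the nearest being Adap1 (-1.44 and 1.01) and Spdya (-1.45 and 1.01). Cacna1s had 63, led by Pcdh7 (-0.32 and 1.09) and Usp25 (-0.28 and 1.08), Cacna2d1 had 59, led by Rab28 and Egf, and Cacnb1 60, led by Zfp35 and Eef2k. Cacng1 had 90 (Nck2 and Mfsd6 nearest), Cav3 238 (Cox7a2 and Nr1i2), Jph1 272 (Reep5 and Entpd6), Trdn 364 (Timm29 and Ston1) and Bin1 507 (Izumo1 and Ino80e). The highest counts were those of Bin1 (-0.15 and 0.49) and Trdn (-0.11 and 0.57), which had small folds. The low count of Jph2 (-1.36 and 1.03) is thus not separate from the size of its folds. The likeness rests on 2 folds from 3 arrays that share the normal soleus, so it is a description only.

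Lists of further genes place the members among genes of the same machinery. Of 16 release complex partners, proteins that sit on or load the release channel, 13 had a probe. After denervation 5 were at least 2-fold lower and 0 higher (median -0.44), and in plantaris 2 were higher and 3 lower (median 0.59). Over all genes 13.4% were at least 2-fold lower and 8.73% higher after denervation, and in plantaris 5.71% were higher and 6.11% lower by that size. Between denervated soleus and plantaris 1 partner was higher and 5 were lower (median -0.66), where 12.0% and 16.7% of all genes were.

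Fkbp1b, a calstabilin that binds the release channel, went the way of Jph2. Its level was 0.903 in normal soleus, 0.193 in denervated soleus and 1.60 in plantaris, so its folds against normal soleus were -2.23 ± 0.21 and 0.83 ± 0.20, and denervated soleus stood at -3.06 ± 0.21 against plantaris. Speg, the kinase that acts at the triad and binds junctophilin-2, had 8.73, 3.80 and 15.8 (-1.20 and 0.86, and -2.06 between denervated soleus and plantaris). Both genes had the array order of Jph2, but so did the partners Casq1, Hrc, Homer1, Tmem38a, Jsrp1 and Fkbp1a. Of all genes well above background on every array 27.0% had this order.

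The calsequestrins split by isoform. Casq2, the slow and cardiac form, stood at 36.5 in normal soleus, 4.65 in denervated soleus and 5.72 in plantaris (-2.98 and -2.68). Casq1, the fast form, stood at 105, 82.0 and 363 (-0.35 and 1.80, and -0.12 and 2.01 on its second probe), with -2.15 between denervated soleus and plantaris. Thus Casq2 was low in both arrays other than normal soleus, and Casq1 was high in plantaris alone.

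Homer2 and S100a1 went with Casq2, and Homer1 with Casq1. The scaffold gene Homer2 had folds of -2.23 after denervation and -1.57 in plantaris, and the calcium sensor gene S100a1 -1.64 and -1.14. Homer1 had -0.22 and 1.42, and -1.64 between denervated soleus and plantaris. Stac3, the adaptor that the voltage sensor needs to couple to the release channel, was the one partner above plantaris after denervation by at least 2-fold: its level was 22.0, 40.8 and 19.1 (0.89 and -0.21, and 1.09 ± 0.20). Hrc, the histidine-rich calcium binder of the store, stood at -1.29 between denervated soleus and plantaris (-0.51 and 0.77 against normal soleus).

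Of 11 genes for T-tubule shape and caveolae 9 had a probe, and none was 2-fold from normal soleus in either comparison (medians -0.28 after denervation and 0.16 in plantaris). Over all genes 22.1% were at least 2-fold from normal soleus after denervation and 11.8% in plantaris. Sypl2, mitsugumin 29 of the triad membrane, came closest after denervation, with 73.7 in normal and 37.6 in denervated soleus (-0.97 ± 0.20), but -0.37 on its second probe. By brighter probes it was the 1 gene of the list at least 2-fold below plantaris after denervation (-1.27), where 16.7% of all genes were. Its second probe was at -0.89, and the list median was -0.44. Ehd1 (-0.65), a membrane remodelling ATPase, Mtm1 (-0.59), the myotubularin phosphatase, and Cavin4 (0.35), the muscle cavin, followed after denervation. In plantaris the largest were Pacsin3 (0.49), a membrane-bending adaptor, Dysf (-0.36), the membrane repair protein dysferlin, Cavin4 (0.35) and Sypl2 (0.30). Against plantaris the denervated soleus stood at -0.81 for Ehd1, -0.77 for Mtm1 and -0.75 for Pacsin3. Dnm2, the dynamin of the tubule, read -0.04 on its brighter probe and -1.32 on the other after denervation. Between denervated soleus and plantaris the same probes read -0.06 and -1.57.

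Of 5 genes for calcium entry after store loss 4 had a probe (medians -0.31 after denervation, 0.39 in plantaris and -0.46 between denervated soleus and plantaris). Stim1, the store sensor, and Orai1, the entry channel, were within 2-fold (-0.39 and 0.33, and -0.22 and 0.46), with denervated soleus at -0.72 and -0.68 against plantaris. Stim2, a second sensor, was faint at 0.0307, 0.0703 and 0.0824, with 1.20 ± 0.36 and 1.43 ± 0.36, and 0.72 and 0.96 on its other probe. Trpc1, a cation channel, was lower in plantaris (-1.60 ± 0.21) and -0.43 ± 0.21 after denervation, and denervated soleus was above plantaris by 1.17.

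Of 20 paralogs of the members 18 had a probe, and Cacnb2, Cacna2d2, Cacna2d4 and Jph3 were not well above background on any array. After denervation 14 could be compared, 1 of which was at least 2-fold higher and 0 lower (median 0.14). In plantaris 12 could be compared, with 1 higher and 0 lower (median 0.11), and between denervated soleus and plantaris 1 was higher and 2 lower (median 0.33). Over all genes the shares higher and lower were 8.73% and 13.4% after denervation, 5.71% and 6.11% in plantaris, and 12.0% and 16.7% between denervated soleus and plantaris. Cacnb4, another beta subunit, was the higher gene after denervation: its level was 0.0426 in normal soleus, 0.198 in denervated soleus and 0.0530 in plantaris (2.22 ± 0.28 and 0.31 ± 0.31, and 1.90 ± 0.25 between denervated soleus and plantaris). It was faint beside the array's 75th percentile on all 3 arrays.

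The gamma subunit gene Cacng6 had the pattern of Cacng1, with 0.851, 0.619 and 1.74 (-0.46 and 1.03, and -1.49 between denervated soleus and plantaris). Jph4 stood at -0.78 and 0.20, and -0.99 between denervated soleus and plantaris. Ryr2, the cardiac release channel, had -0.60 and 0.42 on its brighter probe and -1.06 and 1.06 on the other, with -1.02 and -2.12 between denervated soleus and plantaris. Of the pore subunits of other calcium channels, Cacna1c read 0.76 on one faint probe and -1.71 on the other after denervation, Cacna1g 0.67 on one faint probe and -0.10 on the other, and Cacna1h -0.64 (-0.47 in plantaris). Bin3 was at -0.48 in plantaris and 0.80 between denervated soleus and plantaris.

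**Figure D4:**
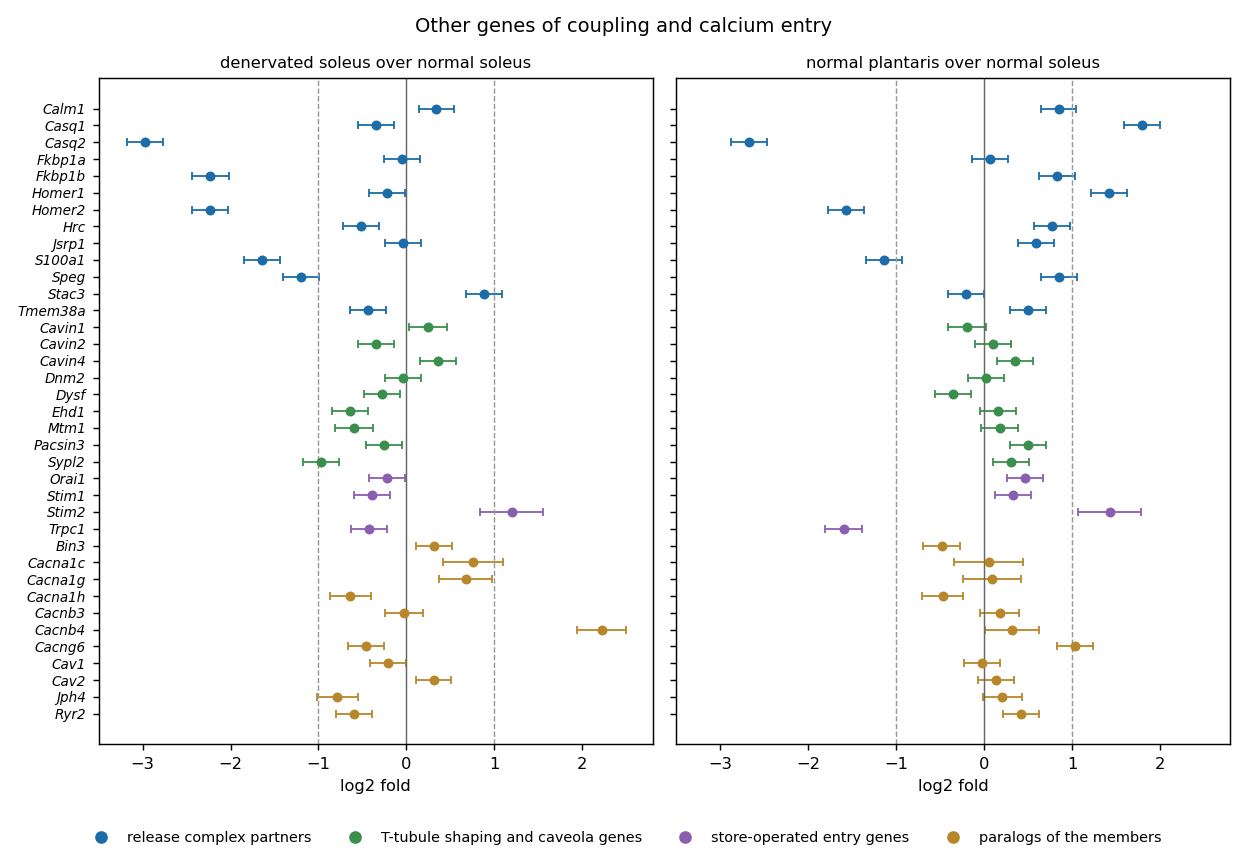
Log2 folds with scanner error of the further genes of excitation-contraction coupling and calcium entry, coloured by list, for denervated over normal soleus (left) and normal plantaris over normal soleus (right); a gene is drawn where it was well above background on both arrays, and dashed lines mark 2-fold. Casq2, Fkbp1b and Homer2 lie furthest left in the left panel and Cacnb4 furthest right; in the right panel Casq1 is furthest right.

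Scaling moves the denervation folds of the bright triad genes most. With the authors' deposited values the median of all genes was 0.26 after denervation and 0.36 between denervated soleus and plantaris, under quantile normalization 0.14 and 0.17, and with normexp background -0.10 and -0.17, so folds there are read against those shifts. A percentile over detected probes gave 0.14 between denervated soleus and plantaris, and the authors' deposited values gave -0.09 in plantaris. The share of all 2-fold calls that were higher was 39.4% after denervation, but 58.6% with the authors' deposited values and 26.8% with normexp background. Between denervated soleus and plantaris it was 41.8%, and 66.9%, 27.8% and 54.1% with the authors' deposited values, normexp background and quantile normalization. The plantaris folds of all 9 genes remained above 0 in all 11 other ways of processing, and Jph2 was the only member at least 2-fold lower after denervation in all of them.

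**Figure D5:**
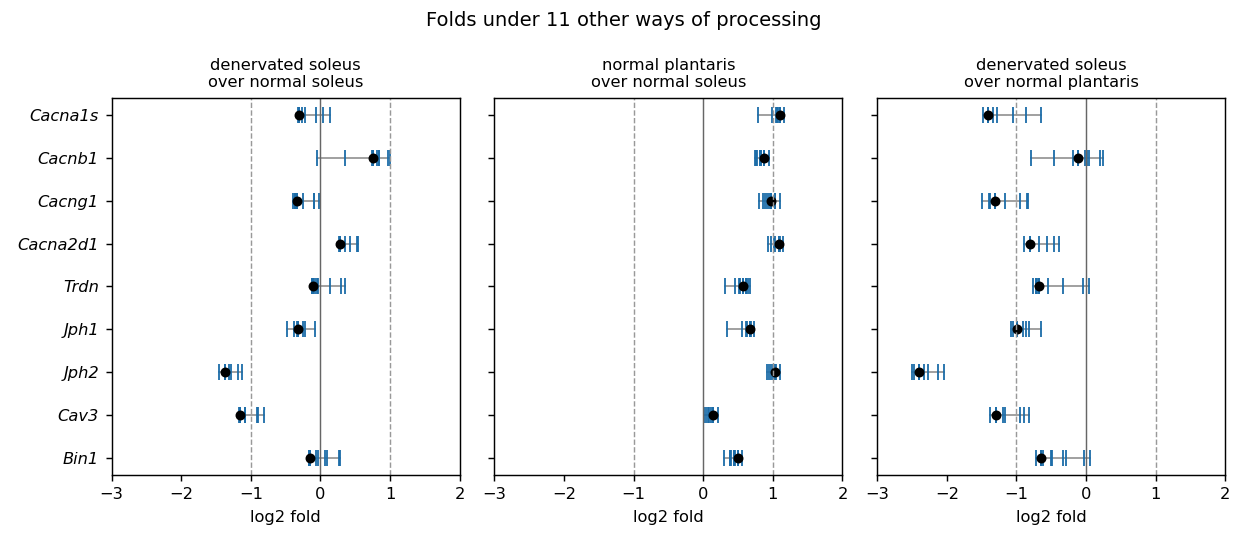
Log2 fold of each triad gene as reported (black dot) and under 11 other ways of processing (blue ticks, grey line for their range); dashed lines mark 2-fold. Denervation folds of Cacna1s, Trdn and Bin1 span 0, those of Cacnb1 reach from -0.04 to 1.0, and Jph2 stays left of the lower line.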

How the data were processed

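The submitters' processing notes name Agilent Feature Extraction 10.10.1.1. Per the file headers, its processed signal is a linear intensity with the background subtracted. Per the file headers, other columns hold flags for spots well above background, saturated or outlying. In the authors' deposited table each intensity is that processed signal multiplied by 1.60 (normal soleus), 1.41 (denervated soleus) or 1.80 (plantaris). The sources used here do not say what set these factors.

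From each log2 signal the 75th percentile of its array was subtracted, taken over 58717 spots that are not controls. Outlier spots (467 to 569 per array) were left out and repeat spots averaged. Of 30367 probes 18005 matched a RefSeq symbol. The brightest probe stood for a gene. A gene entered a comparison if well above background (at least 50% of its spots) on 1 of its 2 arrays, and a gene well above background on just 1 of them got a bound, set against the faintest such signal of the other array or its own signal there, whichever was larger. Counts use at least 2-fold, a rule of size and not a test. The members and lists were chosen with earlier results of these data known. Further genes named are, per list and comparison, the 4 with the largest folds and any past 2-fold, and a few beyond that rule were added after their values were seen. The alternatives were normexp background (limma 3.58.1, R 4.3.3; offset 50), run on spot medians because the deposited files have no spot means, quantile normalization, the authors' deposited values, other centrings, other rules for probes and for dim or outlier spots, and, added after the data were seen, centring on genes within 0.5 log2 units of brightness and the faintest probe. The code was tested on simulated data.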

Additional observations from a re-analysis of the deposited data

How the results depend on the processing

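No paired analysis was possible because each group has 1 array, and no replicate could be left out. Of 297 member folds under 11 alternatives, 245 moved by less than their scanner error and none that was past 2-fold changed sign. Folds under 2-fold that changed sign belonged to Cacna1s, Cacnb1, Trdn and Bin1, in comparisons with the denervated array only. After denervation the members' median (-0.31) became 0.14 under quantile normalization, -0.062 with the authors' deposited values and 0.040 when centred on genes of like brightness. The count at least 2-fold lower (2) became 1 under each of these, and the count higher (0) became 1 with the authors' deposited values. Those values differ from the processed signal by 1 factor per array, so every gene shifts alike by construction, and the members' median less that of all genes stayed at -0.32 after denervation. In plantaris the count higher (3) became 1 under quantile normalization and 0 with the authors' deposited values. Between denervated soleus and plantaris the median (-1.0) became -0.65 under quantile normalization and -0.64 with the authors' deposited values, and the count lower (4) became 1, 2 and, against genes of like brightness, 2. With normexp background 12.1%, 5.37% and 16.0% of all genes were past 2-fold in the 3 comparisons, against 22.1%, 11.8% and 28.7%. The cause of the other shifts was not tested. Faint signal limits Jph1, Stim2 and Cacnb4.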
